A study of Rattus norvegicus with 6 samples.

Results

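Signals of 10 genes known from fat cells were followed in 6 arrays of cultured neonatal rat ovary: Fabp4, Cfd, Car3, Pparg, Cebpa, Lpl, Lipe, Cidea, Gpd1 and Pnpla2. They were proposed as markers of fat that could come attached to a dissected ovary. All probe sets whose only gene symbol in the array annotation was one of these names were taken, which gave 17 of 31042 probe sets for 10 of 14217 genes. The NT3 group held 3 samples of whole ovaries from 4-day-old female Sprague-Dawley rats, kept in organ culture for 48 h with 50 ng/ml of recombinant human neurotrophin 3. The control group held 3 samples of the same ovaries cultured for 48 h with no added factor. Both groups shared the same medium with albumin, ascorbic acid, transferrin and antibiotics, and neither carried a transgene or mutation. Each sample pooled 2 to 3 ovaries. The titles call the samples biological replicates but do not tell whether pools came from separate litters, and a p-value here covers the spread between pools and nothing wider. The study set treated against untreated ovaries to find transcripts that respond to NT3, a growth factor of the neurotrophin family.

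A fat cell stores triglyceride in a lipid droplet. Its differentiation is driven by the nuclear receptor encoded by Pparg and the transcription factor encoded by Cebpa, which act on genes for fatty acid uptake, storage and release. In rodents the ovary lies in a bursa next to a fat pad, so pieces of that pad can stay on the organ. Several of the 10 genes are also used outside fat. Fabp4 is used in capillary endothelium and macrophages, and Lpl in macrophages. Car3 is used in slow muscle and liver, and the lipases in most tissues that store lipid.

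The deposited values are MAS5 signals on a linear scale with equal trimmed means of 210.1 on all arrays and medians of 69.0 to 75.0. Such a signal gives no transcript number, and levels of different probe sets cannot be set against each other. In a whole organ, fewer cells of a type and less RNA per cell cannot be told apart. Granulosa and oocyte genes define the labelled tissue. All 9 annotated granulosa genes and all 6 annotated oocyte genes, of 12 listed, passed the filter on low signal, as did all 10 members. This filter was set at a mean log2 signal at the 40th percentile of all probe sets, or a signal of 41.3. The 3′ to 5′ signal ratio of beta-actin, which goes up as RNA is degraded, was 2.82, 2.91 and 2.78 in NT3 replicates 1 to 3, against 2.42, 6.83 and 2.60 in control replicates 1 to 3, so that control replicate 2 stood apart. Log2 fold changes of the 10 genes without that array are given beside those with it.

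The 10 genes did not vary as 1 group. Fabp4 and Car3 varied strongly between arrays and in a similar order, and Cfd and Gpd1 followed them more loosely. No correlation between members passed after adjustment. Of the pairs of members 2.22% had r above 0.8, against 5.12% of all gene pairs. Lpl, Cidea and Pnpla2 stayed within 1.43-fold over all 6 arrays. The arrays with the most Fabp4 and Car3 were 1 from each group, NT3 replicate 1 and control replicate 3. No member passed the test for NT3 against control, and in none of them did the 2 groups of arrays separate. The genes that define a fat cell most strictly, Adipoq, Lep, Plin1 and Cidec, lay below the signal filter.

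**Figure D1:**
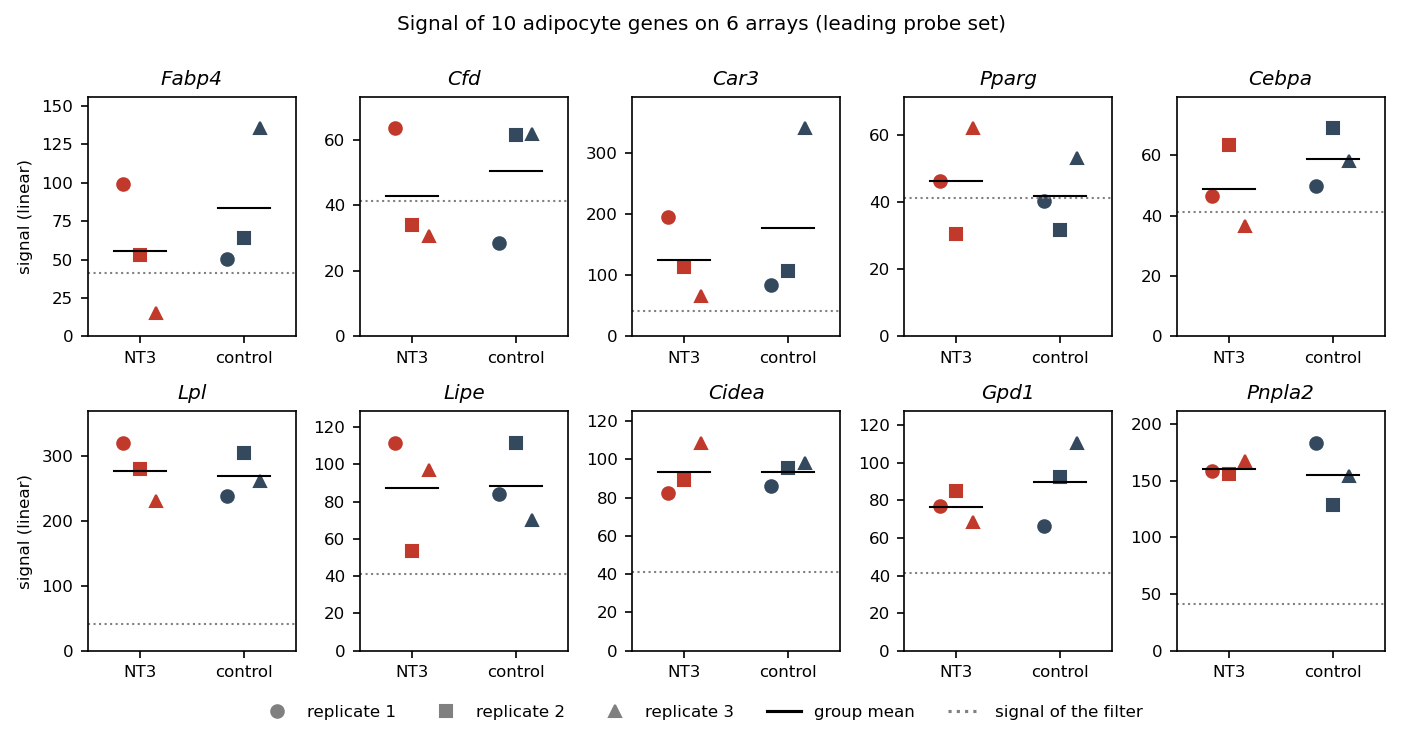
Signal of the leading probe set of each gene (linear scale, from 0) on the 3 NT3 and 3 control arrays, with the group mean as a bar, the replicate number as the symbol and the filter signal of 41.3 as a dotted line. Fabp4 and Car3 are highest in control replicate 3 and second in NT3 replicate 1, and the groups overlap in all 10 panels.

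Fabp4 encodes the cytosolic carrier of fatty acids in fat cells. Its 1 probe set had signals of 99.2, 52.8 and 15.0 in NT3 replicates 1 to 3, against 50.6, 63.9 and 135.4 in control replicates 1 to 3. NT3 replicate 3 was far below all others, control replicate 3 was highest, and the groups overlapped. The highest array was 9.03-fold above the lowest, and of 1363 tested genes whose mean log2 signal lay within 0.5 of that of Fabp4, 99.7% had a smaller span. The log2 fold change was -0.83 ± 0.64 (SE), or 0.564-fold with a 95% interval from 0.208 to 1.53, at an adjusted p of 1.00 by limma (unadjusted 0.227). It was -0.95 without control replicate 2. Single arrays moved it further, to -0.07 if NT3 replicate 3 was left out, to -0.41 if control replicate 3 was, and to -1.43 if NT3 replicate 1 was. In that last fit limma gave an unadjusted p of 0.0418 and an adjusted p of 1.00.

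Car3 encodes a cytosolic carbonic anhydrase that is abundant in fat and slow muscle. The brighter of its 2 probe sets read 195.6, 113.4 and 66.8 in NT3 replicates 1 to 3, against 85.0, 106.4 and 341.0 in control replicates 1 to 3. The order of the arrays was close to that of Fabp4, with control replicate 3 on top, NT3 replicate 1 next and NT3 replicate 3 at the bottom. The range over arrays was 5.10-fold, wider than in 99.8% of 2024 tested genes of like level. Between groups the log2 fold change of Car3 was -0.35 ± 0.53 (limma adjusted p = 1.00), and -0.58 without control replicate 2. It turned to 0.26 without control replicate 3 and to 0.03 without NT3 replicate 3. The second probe set lay below the filter with 55.2, 3.3 and 38.7 in NT3, against 39.3, 13.2 and 88.3 in control. It shared the high signal in control replicate 3 and NT3 replicate 1, but was lowest in NT3 replicate 2, and its log2 signals correlated with those of the first at r = 0.41 over 6 arrays.

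Cfd encodes adipsin, or complement factor D, a serine protease of the alternative complement pathway that fat cells secrete. Its signals were low, at 63.5, 34.0 and 30.8 in NT3 replicates 1 to 3, against 28.6, 61.4 and 61.9 in control replicates 1 to 3. NT3 replicate 1 and control replicates 2 and 3 were high, at 61.4 or above, and the other arrays at 34.0 or below. For Cfd the log2 fold change was -0.24 ± 0.39 (limma adjusted p = 1.00), and -0.05 without control replicate 2. The promoter of Cfd is shown because its signals correlated with those of Fabp4 at r = 0.74, which did not pass after adjustment. RefSeq promoter sequences, 250 bases before to 50 after the start site, were matched for 5 members, Cebpa, Pnpla2, Pparg (at 2 start sites), Cfd and Cidea. The sequence is from GRCr8, chr7:10465447-10465746, minus strand, and capitals mark a GC box on the opposite strand.
Cfd promoter: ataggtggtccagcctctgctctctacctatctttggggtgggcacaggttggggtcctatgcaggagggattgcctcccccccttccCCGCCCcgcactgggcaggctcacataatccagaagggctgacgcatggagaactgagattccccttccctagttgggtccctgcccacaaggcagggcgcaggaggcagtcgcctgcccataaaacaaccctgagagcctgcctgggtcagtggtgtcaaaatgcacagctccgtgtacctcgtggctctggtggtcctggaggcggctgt

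The 6 member promoters were searched on both strands for 4 motifs. The GC box GGGCGG was found in 5 of the 6 member promoters and in 33.1% of all 33469 promoters. The TATA box letters TATAAA were found in 2, those of Cebpa and the first start site of Pparg, and in 14.2% of all promoters. In Cebpa they lay 35 bases before the start site. In Pparg they lay 28 bases after it and on the opposite strand, which is not the place of a TATA box. TTGCNNAA, a C/EBP consensus, matched 1, the second start site of Pparg, against 10.6% of all. AGGTCA, the half-site bound by PPAR and related nuclear receptors, matched 0 of the 6, against 16.2% of all. In Cfd the GC box began 162 bases before the start site. A match describes the letters in this window and shows no binding.

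Among the regulators, Pparg encodes the nuclear receptor that drives fat cell differentiation. Its 1 probe set, near the filter, had 46.3, 30.4 and 61.9 in NT3 replicates 1 to 3, against 40.3, 31.6 and 53.2 in control replicates 1 to 3. Both replicates 2 were lowest and both replicates 3 highest, so the groups overlapped. NT3 minus control was 0.12 ± 0.33 in log2 units (limma adjusted p = 1.00), and -0.06 without control replicate 2.

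Cebpa, the other regulator, had 5 probe sets, of which 2 passed the filter. The brightest had 46.6, 63.4 and 36.7 in NT3 replicates 1 to 3, against 49.8, 68.9 and 58.0 in control replicates 1 to 3, and the second 49.5, 57.8 and 34.0, against 42.6, 75.0 and 66.5. In all 4 of the brighter probe sets control replicate 2, the array with the high beta-actin ratio, was highest and NT3 replicate 3 lowest. Their log2 signals correlated with each other at r = 0.58 to 0.93 over the 6 pairs of probe sets. The fifth, at signals of 1.8 to 11.9, did not share that order. The leading probe set had a log2 fold change of -0.29 ± 0.27 (limma adjusted p = 1.00), and -0.17 without control replicate 2. The part of RNA quality in the Cebpa signal was not tested. The Cebpa promoter is shown because it holds a TATA box before the start site together with 3 GC boxes. It is from GRCr8, chr1:96896334-96896633, plus strand, and capitals mark the TATA box, which begins 35 bases before the start site, and the GC boxes on either strand.
Cebpa promoter: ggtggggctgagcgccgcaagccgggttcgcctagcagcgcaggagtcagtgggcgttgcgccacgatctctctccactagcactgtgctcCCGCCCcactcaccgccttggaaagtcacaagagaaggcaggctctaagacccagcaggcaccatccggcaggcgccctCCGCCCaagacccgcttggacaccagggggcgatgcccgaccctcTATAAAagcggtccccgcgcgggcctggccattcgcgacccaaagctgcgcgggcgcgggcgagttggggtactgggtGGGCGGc

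**Figure D2:**
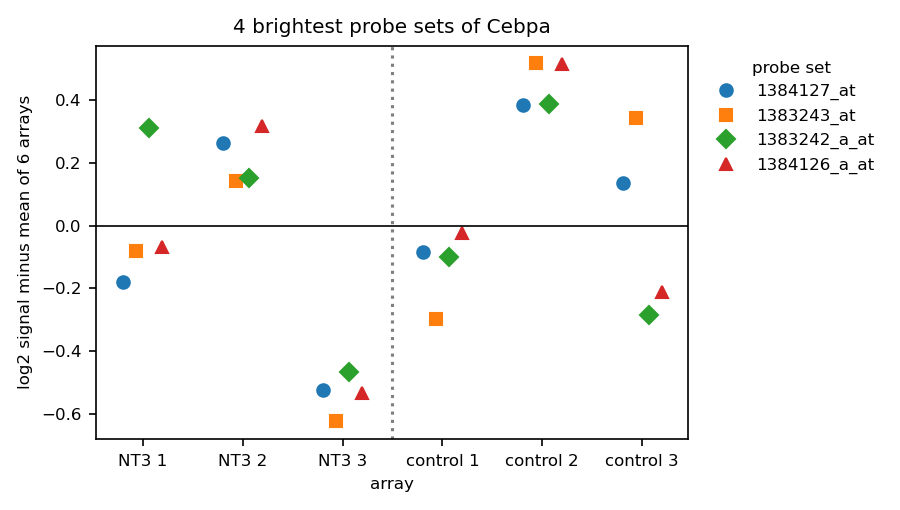
Log2 signal of the 4 brightest Cebpa probe sets on each array, minus the probe set's own mean over the 6 arrays, with NT3 left and control right of the dotted line. All 4 are highest in control replicate 2 and lowest in NT3 replicate 3.

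Among genes of lipid handling, Lpl encodes lipoprotein lipase, which frees fatty acids from circulating triglyceride. It had 320.8, 279.8 and 230.9 in NT3 replicates 1 to 3, against 239.3, 305.4 and 261.2 in control replicates 1 to 3. The arrays stayed within 1.39-fold, and the NT3 values enclosed those of the controls. Its log2 fold change of 0.04 ± 0.16 had a 95% interval from 0.798-fold to 1.32-fold (limma adjusted p = 1.00), and was 0.14 without control replicate 2.

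Pnpla2 encodes adipose triglyceride lipase, which takes the first fatty acid from stored triglyceride. It had 158.8, 155.7 and 167.3 in NT3 replicates 1 to 3, against 183.4, 128.7 and 153.8 in control replicates 1 to 3. The NT3 arrays lay within the range of the controls, in which control replicate 2 was the lowest of all 6. For Pnpla2 the log2 fold change was 0.06 ± 0.17, with an interval from 0.803-fold to 1.36-fold (limma adjusted p = 1.00), and -0.07 without control replicate 2. Lipe, the gene of hormone-sensitive lipase, had 111.7, 53.6 and 97.1 in NT3 replicates 1 to 3, against 84.0, 111.7 and 70.4 in control replicates 1 to 3. NT3 replicate 2 was lowest, and NT3 replicate 1 and control replicate 2 shared the highest value. Lipe had a log2 fold change of -0.06 ± 0.30 (limma adjusted p = 1.00), and 0.12 without control replicate 2. A second Lipe probe set below the filter, at 8.9 to 66.3, gave a correlation of -0.03 with the first.

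Gpd1 encodes the cytosolic glycerol-3-phosphate dehydrogenase, which links glycolysis to triglyceride synthesis. Its leading probe set had 77.1, 84.8 and 68.4 in NT3 replicates 1 to 3, against 66.3, 92.4 and 110.8 in control replicates 1 to 3. Control replicate 3 was highest and control replicate 1 lowest, so the controls enclosed the NT3 arrays. Gpd1 had a log2 fold change of -0.20 ± 0.23 (limma adjusted p = 1.00), and -0.16 without control replicate 2. The other Gpd1 probe set, at signals of 1.7 to 6.0, was near the bottom of the scale. Cidea encodes a lipid droplet protein typical of brown fat. It had 82.5, 89.5 and 108.8 in NT3 replicates 1 to 3, against 86.2, 95.8 and 98.1 in control replicates 1 to 3, a range of 1.32-fold. Its log2 fold change was -0.004 ± 0.18, with an interval from 0.748-fold to 1.33-fold (limma adjusted p = 1.00), and 0.02 without control replicate 2.

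Over the 10 leading probe sets, 3 had a higher and 7 a lower mean log2 signal in NT3 than in control, with a median log2 fold change of -0.13. The same median over all 10600 tested genes was -0.01, with 47.4% higher. Limma called 0 of the 10 at an adjusted p under 0.05, as it called 0 of all 18625 tested probe sets, a share of 0%. No member had an unadjusted p under 0.05, against 240 probe sets or 1.29% of all. In 0 of the 10 did the NT3 and control arrays lie apart, against 1085 probe sets or 5.83% of all. Without control replicate 2 the median was -0.06, with 3 higher and 7 lower, but not the same genes. Pparg and Pnpla2 turned lower, Lipe and Cidea turned higher, and only Lpl was higher in both fits. The median was -0.25 without control replicate 1, -0.24 without NT3 replicate 1, -0.04 without NT3 replicate 2, -0.09 without NT3 replicate 3 and -0.01 without control replicate 3. The count of 3 higher became 5 on leaving out either control replicate 3 or NT3 replicate 2. The 95% intervals reach beyond 1.5-fold in at least 1 direction for Fabp4, Cfd, Car3, Pparg, Cebpa, Lipe and Gpd1, so that changes of that size are not excluded for these genes.

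**Figure D3:**
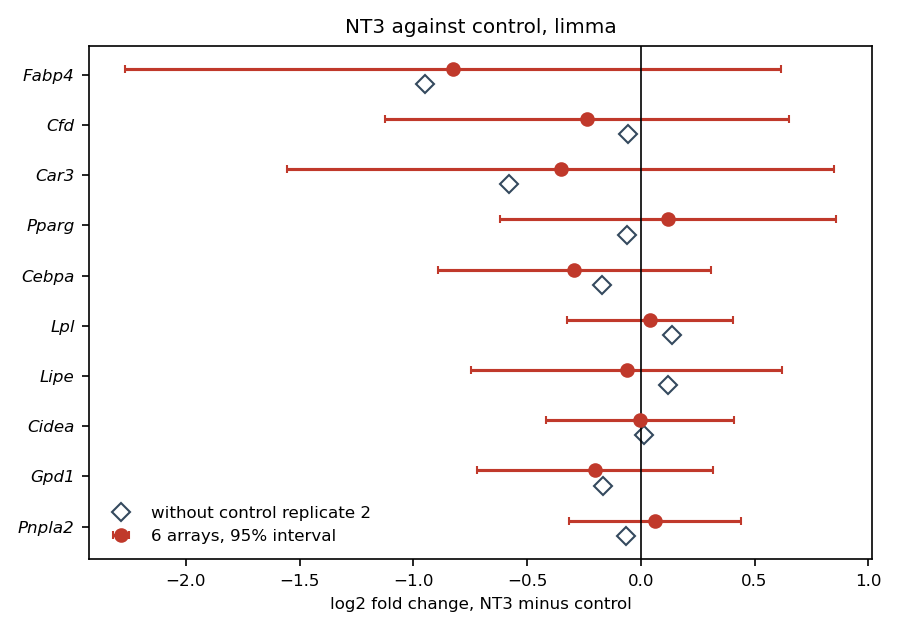
Log2 fold change of NT3 minus control for the leading probe set of each gene, with the 95% interval of limma over 6 arrays (filled) and the value without control replicate 2 (open). Every interval spans 0, and that of Fabp4 is the widest.

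The highest and lowest signals were spread over arrays of both groups. Control replicate 3 held the highest signal of 3 genes (Fabp4, Car3 and Gpd1) and the lowest of 0. NT3 replicate 3 held the lowest signal of 4 genes (Fabp4, Car3, Cebpa and Lpl), yet the highest of Pparg and Cidea. The mean deviation of the 10 genes from their own averages was 0.23, -0.15 and -0.34 log2 units in NT3 replicates 1 to 3, against -0.19, 0.08 and 0.38 in control replicates 1 to 3. NT3 replicate 1 and control replicate 3 each had 7 of the 10 genes above their average, as did control replicate 2, and control replicate 1 had 1.

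Fabp4 and Car3 had the highest Pearson correlation of the 45 pairs of genes. Pearson's r of their log2 signals was 0.88 over 6 arrays, with an exact 2-sided permutation p of 0.025, and Spearman's rho was 0.94 with 0.0167. The adjusted p over the 45 pairs was 0.514 for r and 0.375 for rho, so the pair did not pass. The correlation was 0.94 without the 2 arrays farthest from the Fabp4 median, NT3 replicate 3 and control replicate 3, and 0.90 without control replicate 2. It was 0.89 in deviations from the group means. Fabp4 and Cfd had r = 0.74 (exact permutation p = 0.0417, adjusted 0.514) with rho 0.89 (p = 0.0333, adjusted 0.500), and r = 0.83 without the same 2 arrays. No other pair had an unadjusted p under 0.05 for r, and 0 of 45 passed after adjustment. With 720 orders of 6 arrays, the smallest possible exact p is near 0.00278, and arrays that share a replicate number also deviate together, so the 6 points may not be independent.

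Fabp4, Car3, Cfd and Gpd1, grouped after their values were seen, had r between 0.69 and 0.88 in all 6 of their pairs. The range was 0.68 to 0.92 without control replicate 2. Leaving out NT3 replicate 1 and control replicate 3, the arrays with the most Fabp4 and Car3, it was 0.48 to 0.88 over 4 arrays. The weakest of the 6 pairs, Fabp4 and Gpd1 (r = 0.69), had r = 0.13 without NT3 replicate 3 and control replicate 3, and Cfd and Gpd1 (r = 0.72) had r = 0.25 without NT3 replicate 3 and control replicate 1. Outside the group, Cfd and Lpl had r = 0.76, above 4 of the 6 pairs in it, and 0.31 without the same arrays, NT3 replicate 3 and control replicate 1. The lipase gene Pnpla2 ran the other way, with r of -0.31 against Fabp4, -0.24 against Car3 (-0.68 without control replicate 2), -0.70 against Cfd and -0.67 against Gpd1. For Gpd1 and Pnpla2 rho was -0.94 (exact permutation p = 0.0167, adjusted 0.375), as far from 0 as that of Fabp4 and Car3. Pparg and Cebpa, which induce each other in differentiating fat cells, had r = -0.81 (exact permutation p = 0.0569, adjusted 0.514), and -0.55 without NT3 replicates 2 and 3, the arrays farthest from the Pparg median. Over all 45 pairs 23 were positive and 22 negative, and the median r was 0.03. The median over all pairs of the 10600 tested genes was 0.02. One pair of the 45, or 2.22%, had r above 0.8, compared with 5.12% of all gene pairs.

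**Figure D4:**
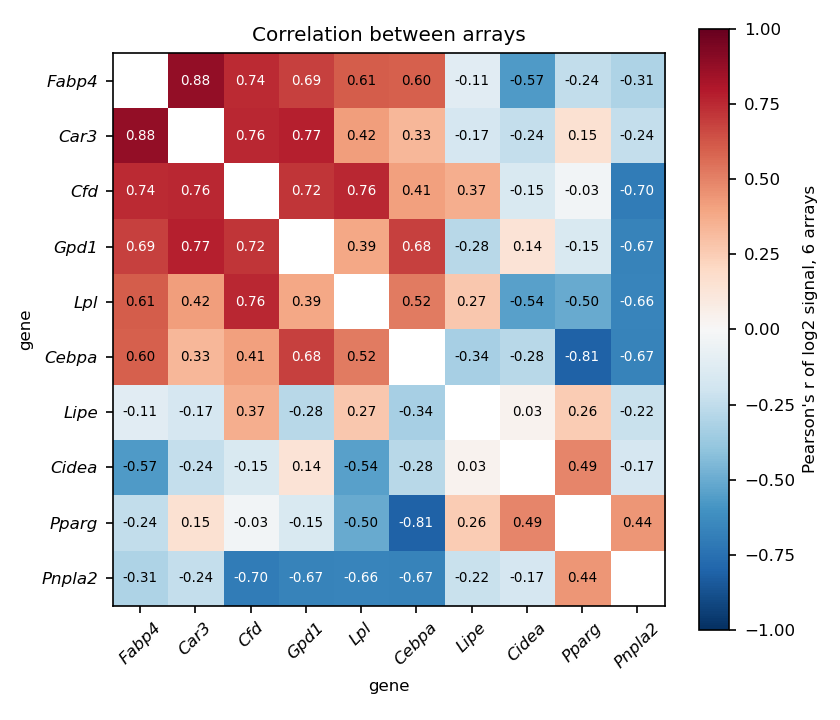
Pearson's r between the log2 signals of each pair of the 10 genes over 6 arrays (colour and number), with genes on both axes. Fabp4, Car3, Cfd and Gpd1, grouped after their values were seen, were placed first, so their high values lie at the upper left. Pnpla2 is negative against 8 of the other 9 genes. No pair passed after adjustment.

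The defining genes of fat cells gave little signal. Adipoq, which encodes the hormone adiponectin, had signals between 10.7 and 17.3 in the NT3 arrays, against 22.0, 17.1 and 37.3 in control replicates 1 to 3. Plin1, which encodes the coat protein of the lipid droplet in fat cells, had 23.8, 15.2 and 19.7 in NT3, against 24.0, 31.2 and 37.8 in control. Both were highest in control replicate 3, where Fabp4 and Car3 were also highest, but in NT3 replicate 1, where Fabp4 and Car3 were second highest, both lay below at least 3 other arrays. The groups lay apart in 5.83% of tested probe sets, all past the filter, in either direction. The NT3 arrays of Plin1 lay below all controls, in a probe set below the filter. In the fit with no filter, over all 31042 probe sets, its log2 fold change was -0.66 ± 0.38 (limma adjusted p = 1.00).

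Lep, the leptin gene, had signals of 1.5 to 3.0 in NT3 and 1.1 to 2.3 in control, and Cidec, which encodes a lipid droplet protein, 1.4 to 4.3 in NT3 and 1.8 to 4.1 in control. Ucp1, the uncoupling protein gene that defines brown fat, had 21.2, 10.9 and 7.0 in NT3, against 4.3, 2.8 and 7.1 in control, all under the filter. Plin4, another lipid droplet gene, had 32.7, 11.1 and 24.8 in NT3 replicates 1 to 3, against 5.1, 13.6 and 29.5 in control replicates 1 to 3, with NT3 replicate 1 and control replicate 3 on top as for Fabp4 and Car3, though NT3 replicate 3, lowest for both, was above 3 other arrays here. None of these genes was at 0 on all arrays. These markers were under the filter on all 6 arrays, but the filter is a percentile of signal and does not tell whether a transcript is present. Whether fat was attached was not tested, and the 10 genes are called adipocyte genes by list only.

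**Figure D5:**
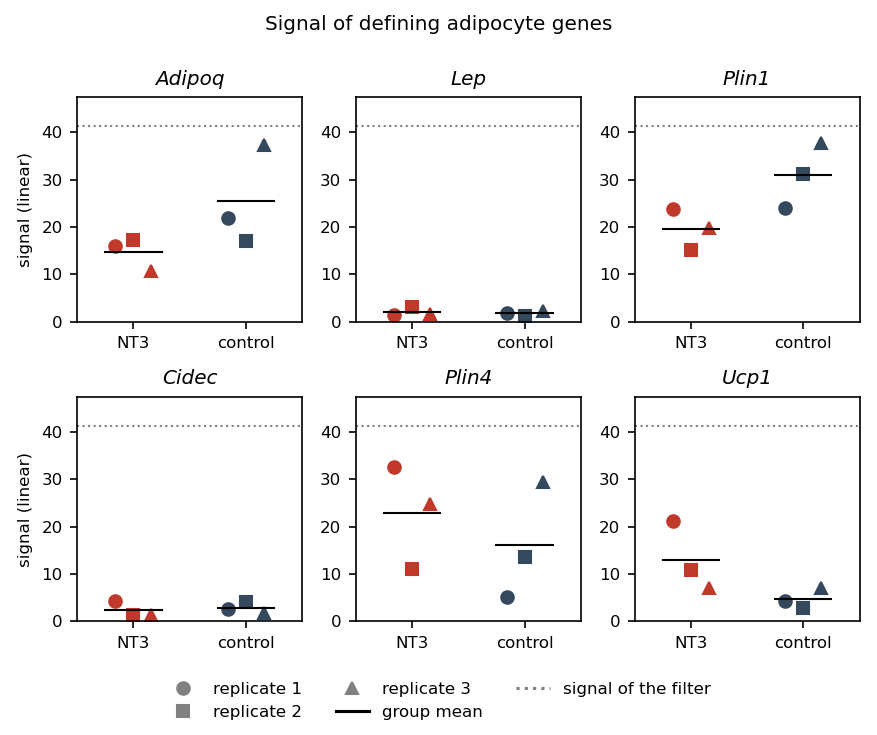
Signal of defining adipocyte genes (linear scale, from 0) on the 3 NT3 and 3 control arrays, with symbols for replicate numbers, bars for group means and the filter signal of 41.3 as a dotted line. All points lie under the filter, and Adipoq and Plin1 are highest in control replicate 3.

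A further list of fat cell genes had 46 annotated members, of which 29 passed the filter, 13 of them higher and 16 lower in NT3, with a median log2 fold change of -0.05. Limma called 0 of them. Its lowest unadjusted p-values were those of Mgll, the monoacylglycerol lipase gene (0.53 ± 0.26), Cav2, a caveolin gene (0.49 ± 0.24), Fabp3, the heart-type fatty acid binding protein gene (-0.24 ± 0.14), and G0s2, an inhibitor gene of adipose triglyceride lipase (0.22 ± 0.23), all as log2 fold changes with SE at a limma adjusted p of 1.00. Without control replicate 2 they were 0.39 for Mgll, 0.24 for Cav2, -0.26 for Fabp3 and -0.0056 for G0s2. Cd36, a fatty acid transporter gene, had 118.4, 93.6 and 100.9 in NT3, against 104.9, 29.2 and 140.2 in control, with its low value in control replicate 2. Its log2 fold change was 0.46 ± 0.50, and -0.22 without that array. The NT3 and control arrays lay apart for 2 of the 29, Fabp3 and Zfp423, both lower in NT3, against 5.83% of all tested probe sets in either direction. Of 17 annotated brown fat genes 10 passed the filter, with 4 higher, 6 lower and 0 called. Prdm16, a regulator of brown fat identity, had a log2 fold change of -0.17 ± 0.20, and -0.03 without control replicate 2.

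Most markers of endothelial cells, which can express Fabp4, and of macrophages, which can express Fabp4 and Lpl, passed the filter. Among endothelial genes 13 of 16 passed it, with 2 higher, 11 lower and 0 called. The summed signal of the 16 was 3192, 2892 and 3179 in NT3, against 3101, 3161 and 3266 in control. Such a sum leans on the brightest probe set, here that of Kdr at 807 to 1294, and does not measure cell content. The list's median deviation was highest in NT3 replicate 1 (0.22), where Fabp4 was second highest, 0.14 in control replicate 1, where Fabp4 was second lowest, and 0.01 in control replicate 3, where it was highest. Among macrophage genes 16 of 18 passed, with 14 higher, 2 lower and 0 called. Their sum, led by Lyz2 at 1359 to 1727, was 5434, 6009 and 5462 in NT3, against 5040, 4917 and 5570 in control. The lowest unadjusted p-values were those of Ctss, a lysosomal protease gene (log2 fold change 0.24 ± 0.13), Adgre1 (0.37 ± 0.20), Tyrobp (0.27 ± 0.15) and Ptprc, which encodes the leukocyte antigen CD45 (0.24 ± 0.17), all at a limma adjusted p of 1.00. Without control replicate 2 that of Ptprc was 0.11 and that of Adgre1 0.26. The NT3 arrays lay above all controls for 2 of the 16, Ctss and Ptprc, against 5.83% of all tested probe sets in either direction. The part of endothelial cells and macrophages in the variation of Fabp4 was not tested.

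Other tissues that could come attached gave these counts. Skeletal muscle genes had 5 of 19 past the filter, 3 higher and 2 lower in NT3, with Myh1 the brightest at 2582 to 3360. The list was not limited to slow muscle, where Car3 is used. The muscle genes Ckm and Acta1 lay below the filter. Their signals were 5.6 to 8.1 and 12.9 to 17.0 in NT3, against 22.9 to 31.6 and 1.5 to 10.6 in control. In both the groups lay apart, in opposite directions, while they overlapped in all other annotated muscle genes. The 2 genes were picked after their values were seen. Groups lay apart in 5.83% of tested probe sets, and the share below the filter was not counted. In the fit with no filter the log2 fold changes were -1.87 ± 0.46 for Ckm (limma unadjusted p = 0.00284) and 2.26 ± 0.82 for Acta1 (unadjusted p = 0.0225), both at an adjusted p of 1.00. Oviduct epithelium genes had 8 of 11 past the filter, 7 higher and 1 lower. Among them Cldn3, a tight junction gene, had 148.2, 142.6 and 86.2 in NT3, against 64.6, 67.9 and 61.7 in control, a log2 fold change of 0.92 ± 0.24 (limma unadjusted p = 0.00372, adjusted 1.00). Mesothelium genes had 9 of 9 past the filter, 5 higher and 4 lower, and 9 higher without control replicate 2. Erythroid genes had 2 of 5, both lower. Granulosa genes were 2 higher and 7 lower, and oocyte genes 2 higher and 4 lower. Limma called 0 genes of these lists.

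The genes most like the mean of the 10 members were sought among 833 other named genes that passed the filter and spanned at least 1 log2 unit over the arrays. That mean was taken over unscaled log2 deviations, so it leaned on Fabp4 and Car3 and is no pattern of all members. With the mean of the other members, r was 0.88 for Car3, 0.87 for Cfd, 0.78 for Fabp4 and 0.73 for Gpd1. It was 0.55 for Lpl and 0.32 for Cebpa, but -0.05 for Lipe, -0.11 for Pparg, -0.32 for Cidea and -0.50 for Pnpla2. Among the 833 genes, the 10 highest values of Pearson's r with the mean of all members over 6 arrays ran from 0.76 to 0.89. As the highest of 833, they are no measure of a shared pattern. The genes were Aptr, Slc9a2, Il1rl1, Cxcl11, Syp, Ager, RT1-T24-3, Sash3, Havcr1 and Gngt2. No gene of the further fat cell lists was among them. The filter had kept Adipoq, Lep, Plin1, Plin4, Cidec and Ucp1 out of the search, and the limit on span kept out others. Their absence therefore tells nothing of how fat cell genes varied. Cxcl11, a chemokine gene, had 144.5, 112.6 and 36.9 in NT3 replicates 1 to 3, against 89.5, 128.7 and 149.0 in control replicates 1 to 3. As with Fabp4, NT3 replicate 3 was lowest and control replicate 3 highest, in single probe sets over 6 arrays. This likeness follows from choosing the gene by its r with a mean that leans on Fabp4.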

How the data were processed

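RNA of 6 cultured rat ovary samples, 3 NT3 and 3 control, was measured on Affymetrix 1-colour arrays. Each array's deposited intensity values came from MAS5, per the submitters' processing notes, and its settings were not stated there. Depth has no meaning for these arrays, and the number of arrays limits the precision. From the 31099 probe sets 57 control probe sets were removed. Intensities were taken to log2 after values of 0, present in 5 probe sets, were set to 0.1. The 18625 probe sets with a mean log2 signal at or above the 40th percentile (5.37) were tested with limma (version 3.58.1, R 4.3.3), using lmFit, then eBayes with a trend on mean signal, 2-sided, and Benjamini-Hochberg adjustment over all of them. Tests of probe sets below the filter come from a fit with no filter. The fit was tested on simulated data. Groups came from the sample titles.

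In the array annotation 20826 probe sets had 1 symbol, 436 several and 9780 none. A gene with several probe sets is led by its brightest on average. Correlations were computed in Python 3.11.15 with exact permutation. The members and 10 further gene lists were chosen with earlier results of these data known. All members were named, as were up to 4 genes per list with the lowest unadjusted p, the strict fat cell genes, and the 10 genes most like the members' mean, leaving out unnamed loci. Plin4, Cd36, Zfp423, Ckm, Acta1, the values of Cxcl11 and the group of Fabp4, Car3, Cfd and Gpd1 were picked after their values were seen.

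Deviations from the group means correlated at 0.230, 0.247 and 0.222 between arrays numbered 1, 2 and 3. On the data alone the numbers may therefore pair the samples, and a block on replicate number was fitted as an alternative. The fit reported has no such block, so its SE, intervals and p-values ignore any pairing. With the block, the lowest unadjusted limma p-values of leading member probe sets were 0.247 for Fabp4 and 0.254 for Cebpa. In the fit reported these were 0.227 for Fabp4 and 0.300 for Cebpa. The alternatives were this block, quantile normalization, median centring, other filters, an offset of 16, no trend, array weights, the mean of all probe sets, other thresholds and each array left out.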

Additional observations from a re-analysis of the deposited data

How the results depend on the processing

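No member was called by limma in 143 single-gene results under the alternatives, where the lowest adjusted p was 0.982. The mean of all probe sets gave 4 more values, with no test, and 124 of the 147 values kept the direction. Over all probe sets limma called 0 under the other alternatives. It called 4 with the replicate block and without control replicate 2, chosen after seeing the data, namely Hnrnpa2b1 (log2 fold change -0.65, adjusted p = 0.0475) and 3 probe sets without a single gene symbol. The probe sets with an unadjusted p under 0.05 numbered 240 in the fit reported and 401 with the replicate block, 752 with no filter, 123 with a filter at the 60th percentile, 377 with no intensity trend, 585 with array weights, 962 with the block and without control replicate 2, and 176 to 656 with single arrays left out (656 without control replicate 2, 420 without control replicate 3). The replicate block changed no call. The count of members higher in NT3 was 2 of 3 with the stricter filter, 5 with the block and without control replicate 2, and 2 to 5 of 10 with single arrays left out. The median correlation between members was -0.24 with the stricter filter, which left 3 genes whose median log2 fold change was 0.04, and -0.12 to 0.16 with single arrays left out. Quantile normalization, median centring and the offset of 16 moved the median of all tested probe sets by at most 0.0093 log2 units. The median correlation between members was 0.13 with quantile normalization and 0.15 with median centring, against 0.033.

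Several directions turned, with no member called. Cidea had a log2 fold change of 0.0030 with quantile normalization, 0.0053 with median centring and 0.043 with the block and without control replicate 2, and -0.12 to 0.082 with single arrays left out. With array weights Cfd had 0.057, Pparg -0.022, Lipe 0.13 and Pnpla2 -0.045. With the block and without control replicate 2, Cfd had 0.072, Lipe 0.44 and Pnpla2 -0.043. With single arrays left out Lpl ranged from -0.072 to 0.16, Pparg from -0.12 to 0.39, Lipe from -0.27 to 0.26, Pnpla2 from -0.065 to 0.19 and Car3 from -0.74 to 0.26. The cause was not tested. Fabp4, Cebpa and Gpd1 stayed lower in NT3 in every fit, though some of the fits could not change the value. With single arrays left out, Fabp4 ranged from -1.43 (without NT3 replicate 1) to -0.069 (without NT3 replicate 3). Cebpa ranged from -0.50 (without NT3 replicate 2) to -0.10 (without NT3 replicate 3). Gpd1 ranged from -0.40 (without control replicate 1) to -0.034 (without control replicate 3). Cfd ranged from -0.61 (without control replicate 1) to -0.039 (without NT3 replicate 3).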
